A study of Pyrus x bretschneideri with 2 samples.

Results

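The genes described here are 6 pear genes whose deposited protein descriptions name a 3,5-dihydroxybiphenyl synthase or a 4-hydroxycoumarin synthase, of 45022 genes listed in all. They were chosen by identifier from the 381 genes that the authors called different, so their fall in the yeast library is how they were picked and is given as a description, with no test. RNA came from tissue around wounds in pear fruit (Pyrus x bretschneideri). In the yeast library the fruit had been treated with Meyerozyma guilliermondii, a yeast studied for the biological control of fruit rots, and in the water library with sterile distilled water. Incubation lasted 3 days at 20 °C for both. Each group is 1 library, and the sources used here do not say how many fruit it pooled, so no value below has a replicate error and no p-value was computed.

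Biphenyl synthases are type III polyketide synthases, relatives of chalcone synthase. They extend benzoyl-CoA with malonyl-CoA to 3,5-dihydroxybiphenyl, the scaffold from which apple, pear, mountain ash and their relatives make biphenyl and dibenzofuran phytoalexins, antimicrobial compounds formed on attack. The same enzymes can accept 2-hydroxybenzoyl-CoA (salicoyl-CoA) and then release 4-hydroxycoumarin, which is why their names carry both products. The enzymes were characterised in Sorbus aucuparia, the European mountain ash, as BIS1, BIS2 and BIS3. A role of the pear genes below rests on their likeness to these.

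By best Swiss-Prot hit in the authors' deposited table, Pbr027910 and Pbr027912 match BIS1 (3,5-dihydroxybiphenyl synthase). Pbr027917, Pbr021494 and XLOC_012917 match BIS2 (4-hydroxycoumarin synthase 1), and Pbr027907 matches BIS3 (4-hydroxycoumarin synthase 2). All 6 carry the ontology terms for biphenyl synthase activity, phytoalexin biosynthesis, 4-hydroxycoumarin biosynthesis and 2-hydroxybenzoyl-CoA catabolism, and no other called gene carries any of these terms. The names therefore separate the genes by their nearest relative and not by a measured product. The chalcone and stilbene synthase domains are annotated in 5 of the 6 genes. The exception is XLOC_012917, an assembled locus outside the Pbr gene models, which has no domain annotation.

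Every one of the 6 genes was lower in the yeast library, where their FPKM values (fragments per gene, corrected for gene length and for library size) summed to 2.86, against 143 FPKM in the water library, a 50.0-fold difference. Of every 1000000 FPKM summed over all genes, the 6 held 3.82 in the yeast library and 207 in the water library. In bulk tissue, fewer cells that express a gene and less RNA of it per cell cannot be told apart. In the yeast library 2 of the genes reached 1 FPKM, against all 6 in the water library. The authors called 0.529% of all listed genes lower and 0.318% higher. On the log2(FPKM + 1) scale, a 2-fold fall was passed by 3.00%, and a 2-fold rise by 3.32%, of the 22603 genes that reached 1 FPKM in one library or both. All 6 synthase genes passed the 2-fold fall. The rule that chose the genes used this same contrast, so nothing is read from these counts. The median log2 ratio of yeast over water on that scale was -3.73 over the 6 genes, beside -2.41 over the 198 genes called lower with at least 1 FPKM and 0.00518 over all 22603 genes.

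**Figure D1:**
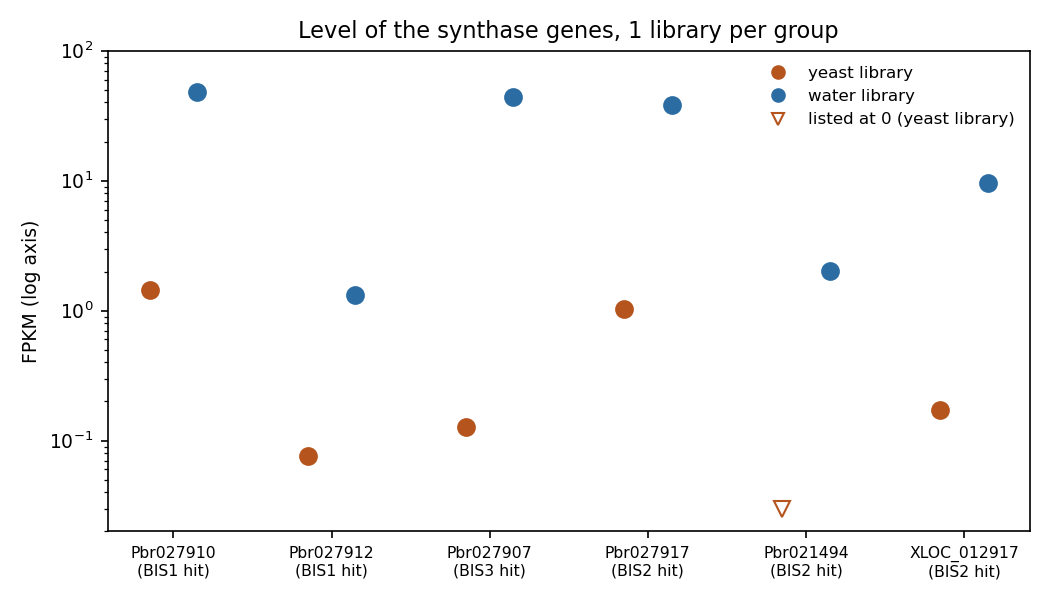
FPKM of each synthase gene (log axis) in the yeast library (orange, left) and the water library (blue, right), 1 library per group, with the BIS gene of the best Swiss-Prot hit under each name. Every gene is lower in the yeast library, and Pbr021494 is listed at 0 there (open triangle).

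Whole reads behind these levels were inferred from the authors' deposited log2 fold changes, by a form that the authors do not state. Among 84 genes called lower and listed at 0 FPKM in the yeast library, 65 had fold changes on whole multiples of 1 step, and so did 21 of 40 called higher and listed at 0 in the water library. With the 2 steps, each remaining fold change was matched to its smallest pair of whole read numbers. For the 6 genes the next pair that matches would need at least 9.13 times as many reads. The pairs were not matched to FPKM, and of 256 called genes above 0 in both libraries 237 (92.6%) had reads per FPKM within 1.5 times of each other in the 2 libraries. The ratio of the steps puts the water library at 1.05 times the scaled size of the yeast library, and folds on reads below are corrected for this. Intervals on these folds are exact 95% binomial ones that take reads as independent. Reads without molecular identifiers are not independent molecules, so the intervals cover counting error at best. They say nothing of the spread between fruit.

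Of the BIS1 matches, Pbr027910 was the most abundant of all 6 genes in both libraries. It had 1.45 FPKM from 220 reads in the yeast library and 47.8 FPKM from 7800 reads in the water library. That is 32.9-fold lower on FPKM and 33.9-fold lower on reads (interval 29.7 to 39.0). In the water library it ranked 2660th of all genes, in the top 5.91%, while in the yeast library it ranked 19917th. The authors' deposited table gives it a log2 fold change of -5.08 with an adjusted p of 4.74e-08, from their comparison of these 2 libraries and not of the treatments.

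The other BIS1 match, Pbr027912, was expressed far less. It had 0.0759 FPKM from 2 reads in the yeast library and 1.33 FPKM from 43 reads in the water library. Its fold on reads was 20.6, with an interval of 5.36 to 175, so the depth fixes its size poorly. It also has the weakest call of the 6 in the authors' deposited table, with a log2 fold change of -4.28 and an adjusted p of 0.00637, where the largest adjusted p of any called gene is 0.00994. Its best hit in the protein database is an apple sequence. Its hit to a grape chalcone synthase has an E-value of 1e-132 in the authors' deposited table, against 1e-169 or less for the other 4 genes with such a hit. The E-value alone does not measure likeness, since the length aligned is not given.

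The BIS3 match Pbr027907 had a larger fold than the abundant genes Pbr027910 and Pbr027917, and its counting interval lies above theirs. This was seen after the folds were known and is a description, not a test. Its interval overlaps those of the other 3 genes. The intervals do not cover how reads that match several of these genes were assigned. Pbr027907 had 0.128 FPKM from 6 reads in the yeast library, against 44.0 FPKM from 2036 reads in the water library. That is 343-fold lower on FPKM (a log2 ratio of -8.42 with no pseudocount) and 325-fold lower on reads (interval 149 to 886). On the log2(FPKM + 1) scale its ratio of -5.32 was the third lowest of the 22603 genes. Its adjusted p of 4.96e-14 is the smallest of the 238 genes called lower in the authors' deposited table, where its log2 fold change is -8.31.

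Of the BIS2 matches, Pbr027917 was the abundant one. It had 1.03 FPKM from 179 reads in the yeast library and 38.3 FPKM from 8033 reads in the water library, which is 37.1-fold lower on FPKM and 42.9-fold lower on reads (interval 37.0 to 50.1). XLOC_012917 had 0.171 FPKM from 2 reads in the yeast library and 9.61 FPKM from 141 reads in the water library, and its 67.4-fold difference on reads has a wide interval of 18.3 to 562. Pbr021494 was listed at 0 FPKM with 0 reads in the yeast library, against 2.01 FPKM from 122 reads in the water library. Taking 3 reads as the limit that a count of 0 allows in the yeast library, it was at least 38.9-fold lower. The two-sided interval used for the other genes is stricter on this count of 0 and starts at 31.2-fold. In the authors' deposited table the log2 fold changes of the 3 BIS2 matches are -5.42 for Pbr027917 (adjusted p = 9.67e-09), -5.99 for XLOC_012917 (adjusted p = 1.79e-06) and -9.90 for Pbr021494 (adjusted p = 1.86e-07). The last of these is set by a 0 and is no measure of size.

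**Figure D2:**
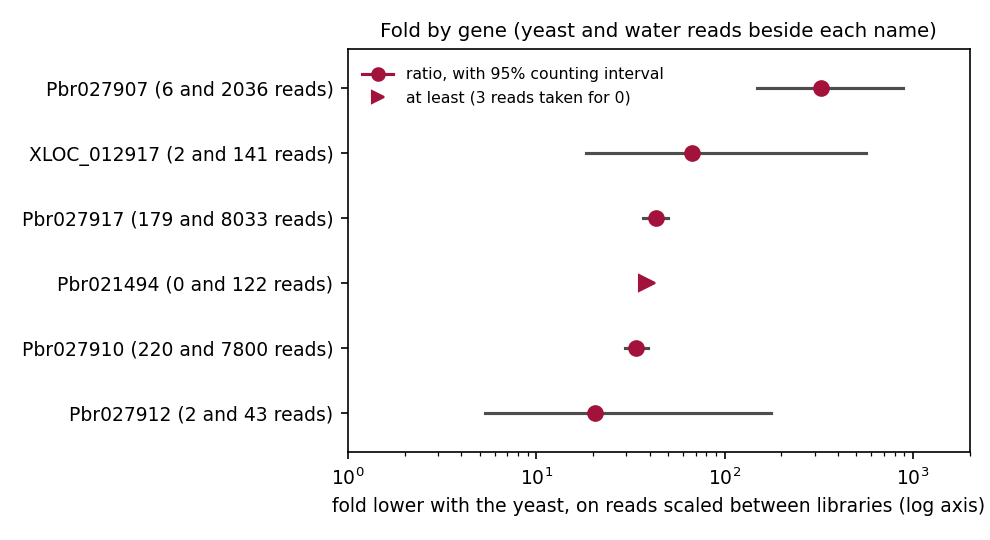
Fold lower in the yeast library than in the water library (log axis) for each synthase gene, on whole reads scaled between the libraries. Lines are 95% counting intervals, the triangle is the bound of 38.9 with 3 reads taken for 0 (the two-sided 95% interval of that gene would start at 31.2), and the numbers beside each name are reads in the yeast library and in the water library. The interval of Pbr027907 lies above those of Pbr027917 and Pbr027910.

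The intervals of the 6 folds were compared after the values were seen, with no correction for the number of pairs. The comparison describes the folds and is no test, since reads are not independent. Pbr027907 also rests on 6 reads in the yeast library. Of the 15 pairs of genes, 2 had intervals that do not overlap, both involving Pbr027907. Its interval starts at 149, above the upper ends of 39.0 for Pbr027910 and 50.1 for Pbr027917. The other 13 pairs overlap. Since the yeast library holds only 0 to 6 reads for 4 of the genes, overlap does not show that these folds are alike. The sums by best hit were 1.53 FPKM in the yeast library and 49.1 in the water library for the BIS1 matches (32.1-fold lower), and 1.20 FPKM in the yeast library and 49.9 in the water library for the BIS2 matches (41.5-fold lower).

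The order of the genes differed between the libraries in the place of Pbr027907 and in that of Pbr021494, which was last with 0 FPKM in the yeast library and above Pbr027912 in the water library. In the yeast library the order of FPKM levels was Pbr027910, Pbr027917, XLOC_012917, Pbr027907, Pbr027912 and Pbr021494. In the water library it was Pbr027910, Pbr027907, Pbr027917, XLOC_012917, Pbr021494 and Pbr027912. XLOC_012917, Pbr027907, Pbr027912 and Pbr021494 had 2, 6, 2 and 0 reads in the yeast library. So few reads do not settle the order of these genes among themselves there, including the last place of Pbr021494. Pbr027907 held 4.48% of the summed FPKM of the 6 genes in the yeast library and 30.8% in the water library. Pbr027910 held 50.8% and Pbr027917 36.1% in the yeast library, against 33.4% and 26.8% in the water library. The 3 abundant genes together held 91.4% of the sum in the yeast library and 90.9% in the water library. Neighbours in the water order lay close at the top, where Pbr027910 was 1.08 times Pbr027907 and Pbr027907 was 1.15 times Pbr027917, and with 1 library no spread between samples exists to set these gaps against.

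Reads and FPKM do not rank the genes alike. Pbr027907, Pbr027910 and Pbr027917 had similar FPKM in the water library, yet Pbr027907 had 46.2 reads per FPKM there, Pbr027910 had 163 and Pbr027917 had 210. The yeast library gave 46.8, 151 and 173 reads per FPKM for the same genes. XLOC_012917 was at the other end, with 11.7 reads per FPKM in the yeast library and 14.7 in the water library. Over the 65 genes on whole steps the water library had a median of 60.6 reads per FPKM. Their range of 12.8 to 292 holds all 6 genes, but Pbr021494, at 60.6, is itself one of the 65. Reads per FPKM grow with the length of the region counted, but gene lengths were not used here. The deposited domain annotation lists RIC1 for Pbr027917 and Pbr021494 and for no other called gene. RIC1 is a domain of membrane traffic proteins and no part of a type III polyketide synthase. Whether these gene models join a synthase to another gene was not tested, nor was a link to reads per FPKM. The reads of Pbr027917 and Pbr021494 may therefore not all come from a synthase. How reads that match several of these related genes were assigned is not given in the sources used here, so the division of reads among them is uncertain.

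Among the 16 consecutive identifiers Pbr027905 to Pbr027920 lie 4 of the 6 genes, Pbr027907, Pbr027910, Pbr027912 and Pbr027917. The values table lists 13 of the 16, and Pbr027908, Pbr027911 and Pbr027916 are not among them. Of the 9 listed identifiers that are not synthase genes by description, 4 had at least 1 FPKM, and their log2 ratios ran from -0.56 to 0.51, within 2-fold. Pbr027906, just before Pbr027907, stood at 27.7 FPKM in the yeast library and 19.1 FPKM in the water library. Pbr027905 stood at 2.07 FPKM in the yeast library and 3.52 in the water library. Pbr027918, just after Pbr027917, stood at 3.48 FPKM in the yeast library and 3.77 in the water library, and Pbr027919 at 6.42 FPKM in the yeast library and 5.10 in the water library. Between the synthase genes, Pbr027909, Pbr027913, Pbr027914 and Pbr027915 were listed at 0 in both libraries, as were 33.5% of all genes. Pbr027920 had 0.183 FPKM in the yeast library and was listed at 0 in the water library. None of the 9 was called by the authors, so none carries a description, and whether any is a further synthase copy is not known here. Consecutive identifiers are not shown here to be neighbours on a chromosome, since positions were not used.

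**Figure D3:**
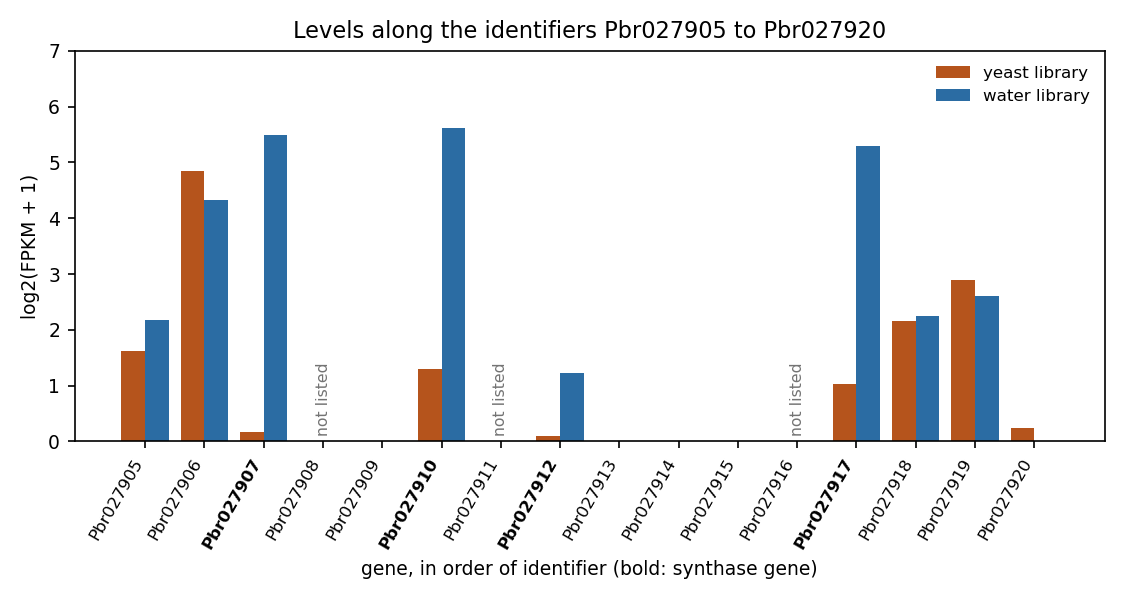
log2(FPKM + 1) along the identifiers Pbr027905 to Pbr027920 in the yeast library (orange, left bars) and the water library (blue, right bars), synthase genes in bold. The 4 synthase genes are lower in the yeast library, while Pbr027905, Pbr027906, Pbr027918 and Pbr027919 lie within 2-fold.

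The other genes lie apart by identifier. The identifiers on both sides of Pbr021494 were within 2-fold or at 0: Pbr021492 had 5.70 FPKM in the yeast library and 3.80 in the water library, and Pbr021493 had 0.886 FPKM in the yeast library and 1.30 in the water library. Pbr021495 and Pbr021496 were listed at 0 in both libraries. XLOC_012917 has no listed identifier within 2 numbers on either side.

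Among all genes the abundant synthase genes lay at the edge of the distribution of ratios. With rank 1 for the lowest of 22603 log2 ratios, Pbr027907 ranked 3, Pbr027910 13 and Pbr027917 16, which puts all 3 in the lowest 0.0708%. XLOC_012917 ranked 56, Pbr021494 292 and Pbr027912 568. The pseudocount draws such low genes towards 0. With no pseudocount Pbr027912 still had the smallest fold of the synthase genes above 0 FPKM in the yeast library (log2 ratio -4.13). These ranks describe 2 libraries and restate how the genes were chosen.

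**Figure D4:**
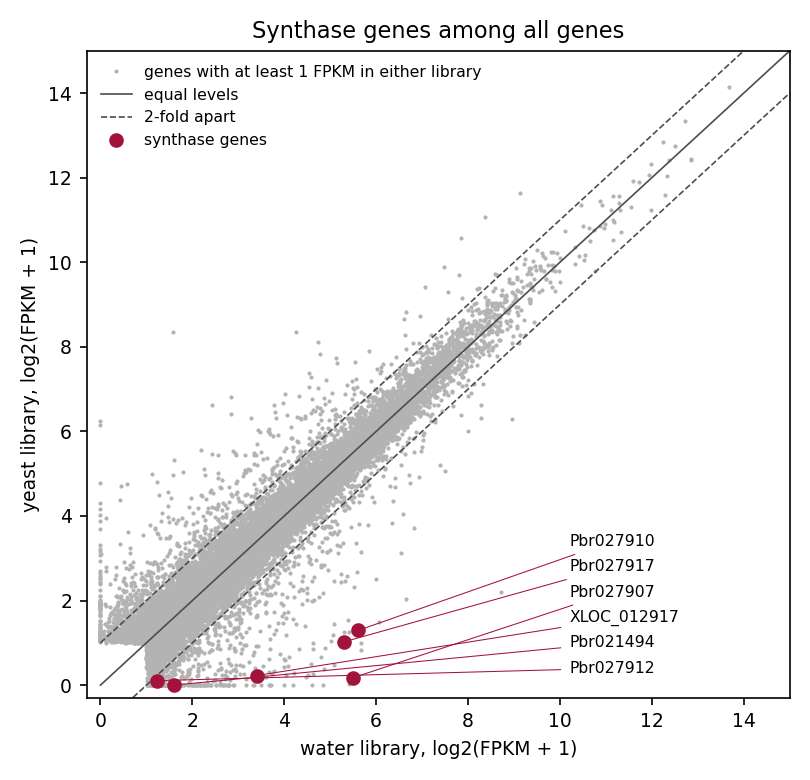
log2(FPKM + 1) in the yeast library against the water library for the 22603 genes that reached 1 FPKM in one or both (grey), with the 6 synthase genes in red. The synthase genes lie below the dashed line that marks 2-fold lower in the yeast library; Pbr027910, Pbr027907 and Pbr027917 lie farthest right among them.

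The steps before and after the synthases are covered only as far as the authors called a gene, since other genes carry no description. Among called genes the list of type III polyketide synthases held the 6 genes above and no chalcone or stilbene synthase of another kind. CYP736A or biphenyl hydroxylase names, the cytochromes P450 that modify the biphenyl scaffold in apple and mountain ash, matched 0 called genes. Phenylalanine ammonia-lyase, cinnamate 4-hydroxylase, aldehyde dehydrogenase, 3-ketoacyl-CoA thiolase, acetyl-CoA carboxylase, chorismate, benzoate and salicylate patterns also matched 0 called genes. A gene that was not called may still differ.

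Acyl-activating enzymes, which join coenzyme A to carboxylic acids, had 3 called genes, 0 higher and 3 lower in the yeast library. All 3 are described as probable acyl-activating enzyme 12, of peroxisomes, after an Arabidopsis protein, and the acid that they use is not given. Pbr033574 had 0.377 FPKM from 49 reads in the yeast library and 10.6 FPKM from 1969 reads in the water library. Pbr008461 had 0.219 FPKM from 42 reads in the yeast library and 9.55 FPKM from 1931 reads in the water library. Pbr008460, next to it by identifier, had 0.162 FPKM from 29 reads in the yeast library and 6.62 FPKM from 1304 reads in the water library. Their log2 fold changes in the authors' deposited table were -5.26 for Pbr033574, -5.45 for Pbr008461 and -5.42 for Pbr008460. The median over all 238 genes called lower was -5.11, with 84 of them listed at 0 in the yeast library. The 6 synthase genes ranged from -9.90 to -4.28, where the -9.90 of Pbr021494 is set by a 0. The thioesterase list had 1 called gene, Pbr018580, lower in the yeast library (47 reads in the yeast library and 1694 in the water library). Its Swiss-Prot description is 1,4-dihydroxy-2-naphthoyl-CoA thioesterase 1, which names neither benzoyl-CoA nor salicoyl-CoA.

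The remaining lists were divided or went the other way. The 4-coumarate--CoA ligases, which activate cinnamic acids for lignin and flavonoid synthesis, had 2 called genes, both higher in the yeast library, with 194 reads in the yeast library against 14 in the water library for Pbr024635 and 388 against 53 for Pbr001283. O-methyltransferases, a family that also methylates biphenyls in mountain ash, had 3 called genes, 2 higher and 1 lower. The higher ones, Pbr013510 and Pbr038709, are described as methyltransferases of caffeic acid and caffeoyl-CoA. The lower one, Pbr025883, had 867 reads in the yeast library and 6186 in the water library, and its descriptions name caffeic acid in one database and anthranilate in another. None of the 3 is described as acting on biphenyls.

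The called genes whose levels were most like each synthase gene, by Euclidean distance of log2(FPKM + 1) over the 2 libraries, included no other synthase gene among the 3 nearest of any of the 6. Nearest to Pbr027910 was the AOP2-like dioxygenase gene Pbr003836 (distance 0.199), which had 1.40 FPKM in the yeast library and 41.6 in the water library. Nearest to Pbr027917 was the flavonol synthase 3-like gene Pbr003486 (distance 0.242), with 1.40 FPKM in the yeast library and 38.6 in the water library. Pbr027907 lies at the edge of the distribution of ratios and had 6 reads in the yeast library, so its larger distances are no separate trait. Its nearest called gene was Pbr035892 (distance 0.513), with 0.397 FPKM in the yeast library and 32.9 in the water library. A cytokinin hydroxylase-like gene, Pbr031329, followed at 0.667. For XLOC_012917 the nearest were Pbr011787 (0.036) and the acyl-activating enzyme gene Pbr008461 (0.059). Pbr027912 lay nearest to the MATE efflux gene Pbr030744 (0.038), and Pbr021494 to the phosphoglycerate mutase-like gene Pbr016054 (0.003). Distances shrink at low levels, so they are not comparable between abundant and scarce genes, and 2 libraries give no measure of co-expression.

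Both libraries were similar in reach. At least 1 FPKM was found for 21495 genes in the yeast library and 21484 in the water library, and the FPKM values summed to 748043 in the yeast library and 692635 in the water library. No called gene had a best hit in a yeast of the genera Meyerozyma, Candida, Saccharomyces, Pichia or Debaryomyces. The listed genes are 41200 Pbr gene models of pear and 3822 assembled XLOC loci, and only called genes carry a description. This count therefore cannot show whether the yeast library held yeast RNA.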

How the data were processed

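The authors deposited FPKM values of 45022 genes in 1 yeast and 1 water library, and a table of their comparison with log2 fold changes (yeast over water) and adjusted p-values (FDR) for 381 called genes, per the file headers. The submitters' processing notes list Bowtie 0.12.2. Not given in the sources used here are the gene counter, genome build, comparison tool, scaling and library totals.

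With 1 library per group no test was made. Ratios were log2((yeast + 1)/(water + 1)), with a pseudocount of 1 FPKM that understates low genes, over genes that reached 1 FPKM in one library or both, with 2-fold as the size rule. Whole reads were solved from the deposited log2 values as log2[(n/p + 1) of yeast over water]. The steps 1/p (8.181355 yeast, 7.826511 water) were fitted on genes listed at 0 with a tolerance of 0.001 reads, and pairs had to match the deposited digits within 1e-09 beyond rounding. This form was read from the values and is not stated by the authors. The genes and lists were chosen with earlier results of these data known. Named were the 6 genes, their identifier neighbours, called genes of the pathway lists and the 3 nearest called genes, the latter given in part. Alternatives were pseudocounts, scaling, filters and a 4-fold rule. The RefSeq gene table carries 0 of the identifiers and was not used. Python 3.11.15, numpy 2.4.6, pandas 2.3.3 and scipy 1.17.1 were used.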

Additional observations from a re-analysis of the deposited data

How the results depend on the processing

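All 6 synthase genes stayed lower in the yeast library under each pseudocount and scaling tried. With a pseudocount of 0.1 FPKM the log2 ratios were -4.95 for Pbr027910 (-4.31 as reported), -7.60 for Pbr027907 (-5.32) and -5.08 for Pbr027917 (-4.27), with -4.40 for Pbr021494 (-1.59 as reported), -5.16 for XLOC_012917 (-3.18) and -3.02 for Pbr027912 (-1.11). With 0.5 FPKM they were -4.63 for Pbr027910 and -4.66 for Pbr027917, since a smaller pseudocount draws values less towards 0. On whole reads with no pseudocount, an alternative chosen after seeing the data, they were -5.08 for Pbr027910, -4.36 for Pbr027912, -8.34 for Pbr027907, -5.42 for Pbr027917 and -6.08 for XLOC_012917. With at least 5 FPKM, or by a 4-fold rule, 4 of the 6 genes and 3 of the identifiers Pbr027905 to Pbr027920 were left, against 6 and 4. Genes past the size rule among all genes numbered 1347 higher and 1100 lower at a pseudocount of 0.1 FPKM, 470 and 382 with at least 5 FPKM, and 144 and 194 by the 4-fold rule, against 750 and 678 as reported. Scaling both libraries to the same FPKM sum gave 643 higher and 765 lower, while centring on the median log2 ratio gave 743 and 683. The balance of all genes thus turned with the first scaling and with the 4-fold rule, and not with the centring. No paired analysis was possible because each group has 1 library, and no library can be left out. Depth limits Pbr027912 and XLOC_012917, with 2 reads each in the yeast library, and Pbr021494, with 0.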

Other observations

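The next called gene by identifier after the range is Pbr027922, described as a CML44 calcium-binding protein. It was listed at 0 FPKM with 0 reads in the yeast library, against 6.50 FPKM from 125 reads in the water library, and was chosen after its values were seen. Of Pbr numbers up to 42925, the highest listed, 4.02% have no listed values, beside 3 of the 16 around the synthase genes.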
